A study of Mus musculus with 2 samples.

Results

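Claudin and tight junction genes were followed in the single-cell transcriptomes of mouse urothelial organoids: the claudins Cldn1, Cldn3, Cldn4, Cldn7, Cldn8, Cldn12 and Cldn23, and with them Ocln, Tjp1 and F11r. These 10 genes, of 31053 gene identifiers in the count matrices, were a list set by symbol, and all 10 were detected in both libraries. Organoids were grown in gel from normal bladder urothelium of wild-type (WT) C57BL/6 mice aged 8 to 10 weeks and profiled with droplet-based 3′ sequencing. One library came from proliferative organoids (NMU-O-P, here P), kept in complete medium, and 1 from differentiated organoids (NMU-O-D, here D), from which EGF, Noggin, WNT3A, RSPO1 and LY2157299 (which blocks TGF-β receptor signalling) had been withdrawn. With 1 library per condition there was no replicate, so that differences between the libraries could not be set against any replicate spread, no test was run, and medium, culture and library cannot be told apart.

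Tight junctions seal the space between neighbouring epithelial cells near their apical side. Claudins are membrane proteins with 4 spans whose strands set how tight the seal is and which ions pass; occludin (Ocln) is a further membrane protein of the strands, ZO-1 (Tjp1) is the scaffold that ties them to actin, and JAM-A (F11r) is an immunoglobulin-like adhesion molecule of the same contacts. The bladder lining is among the tightest epithelia known. Its barrier lies in the umbrella cells of the surface, which also carry plaques of uroplakins, whereas basal cells lie on the basement membrane. Basal cells express Krt5, which the intermediate cells above them also express, and a fraction of basal cells express Krt14.

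After the study's filter (over 800 genes and at most 12% mitochondrial counts per cell), 6818 of 8194 barcodes were kept in P and 4896 of 6975 in D, with 26681469 and 20305621 unique molecular identifiers (UMIs, each marking 1 captured RNA molecule) in all. A filter that also admits cells with exactly 800 genes would keep 6826 in P and the same number in D. Medians were 3405.5 and 3227.5 UMIs per cell. Ribosomal protein genes took 37.5% of the UMIs in P and 21.4% in D, and the median gene was higher in D by 0.42 on the log2 scale. A total of 6 kept barcodes occurred in both libraries. The epithelial genes Epcam, Cdh1, Krt8 and Krt18 held 27296 and 57655 UMIs. Of the 6 endothelial markers, Cdh5, Kdr, Emcn and the endothelial claudin Cldn5 were at 0 in both libraries; Pecam1 held 60 and 50 UMIs and Egfl7 78 and 17. Erythroid genes were at 0. Fibroblast markers held 53 UMIs in P and 1270 in D, of which 1234 were Dcn while Col1a2 was at 0. Leukocyte markers held 25 and 410 UMIs, 400 of the latter being Laptm5, and smooth muscle markers 2 and 230, of which 227 were Rgs5 while Myh11 and Des were at 0 in D. Their part in the results was not tested.

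Among the 10 genes, Cldn3 and Cldn4 lie next to each other on chromosome 5 of GRCm38 (Cldn3 at chr5:134986214-134987472 on the plus strand, Cldn4 at chr5:134945119-134946934 on the minus strand). Their start sites are 39280 bases apart, facing away from each other, with 0 protein-coding genes between them. The 250 bases before each start, taken from RefSeq's table for GRCm38.p6, are shown 5′ to 3′ on the gene's own strand for this pair, whose levels went together across uroplakin ranges and within cells (below), and for Cldn1 (chr16:26356642-26371841, minus strand), whose few UMIs ran opposite to them along the uroplakin ranges but not in all contrasts. Capitals mark matches, on either strand, to CACCTG, an E-box that repressors such as Snai2 can bind, and to TGANTCA, the AP-1 motif.
Cldn3: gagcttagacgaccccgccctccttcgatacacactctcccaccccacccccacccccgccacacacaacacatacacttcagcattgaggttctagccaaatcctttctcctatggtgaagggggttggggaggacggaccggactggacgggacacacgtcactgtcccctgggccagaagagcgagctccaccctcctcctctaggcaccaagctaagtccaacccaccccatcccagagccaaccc
Cldn4: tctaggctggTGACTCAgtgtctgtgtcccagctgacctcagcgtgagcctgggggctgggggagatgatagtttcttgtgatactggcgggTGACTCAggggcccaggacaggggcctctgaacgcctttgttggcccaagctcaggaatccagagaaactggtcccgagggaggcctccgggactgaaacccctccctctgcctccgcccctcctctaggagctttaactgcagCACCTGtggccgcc
Cldn1: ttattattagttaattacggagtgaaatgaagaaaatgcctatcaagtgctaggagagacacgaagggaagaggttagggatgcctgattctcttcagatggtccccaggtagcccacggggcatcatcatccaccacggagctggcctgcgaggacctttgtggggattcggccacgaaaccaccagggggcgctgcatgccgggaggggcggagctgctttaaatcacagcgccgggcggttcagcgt
The Cldn4 window (chr5:134946935-134947184) held both motifs, CACCTG once, 14 bases before the start, and TGACTCA 2 times, 240 and 158 bases before it. Neither motif was in the window of Cldn3 (chr5:134985964-134986213) or of Cldn1 (chr16:26371840-26372089). Over 32851 promoter windows of the same length, 17.2% held CACCTG and 6.75% TGANTCA. The grainyhead motif ACCGGTT, found in 0.831% of windows, had no match in the 8 genes with an entry in the table. Of these, F11r held 1 CACCTG and 1 AP-1 match, and 1 of the 2 start sites of Cldn7 and of Ocln each held 2 CACCTG matches. Cldn8 and Cldn23 were not matched in the table.

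Claudin transcripts were dominated by Cldn4 and Cldn7, a pair of barrier-forming epithelial claudins. Together they made up 82.5% of the claudin UMIs in P (6403 of 7758, exact binomial 95% interval 81.7 to 83.4%) and 82.9% in D (8871 of 10699, 82.2 to 83.6%). Within this near-constant sum, Cldn7 went from 40.7% to 49.4% of claudin UMIs and Cldn4 from 41.9% to 33.6%. Cldn3 went from 4.95% to 8.75% and Cldn8 from 3.27% to 0.953%. All claudins together were at 291 counts per 1000000 UMIs (CPM) in P and 527 CPM in D. The 16 other claudins listed contributed 22 and 10 UMIs, and 7 of them were at 0 in both libraries.

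Levels are given in CPM. Each captured transcript is tagged once at its 3′ end, so that gene length does not enter, but capture can differ between genes. In P, Cldn4 (122 CPM, exact Poisson 95% interval 118 to 126) and Cldn7 (118, 114 to 122) led, and their intervals overlapped. F11r (93.7) and Tjp1 (82.3) followed. Ocln (17.7, 16.2 to 19.4), Cldn23 (16.4, 14.9 to 18.0) and Cldn3 (14.4, 13 to 15.9) formed a middle group in which neighbours overlapped. Cldn8 (9.52), Cldn1 (5.88) and Cldn12 (3.75) were lowest, with separate intervals. In D the order was headed by Cldn7 (260.0, 253 to 267), then Cldn4 (177), Tjp1 (99.0), F11r (85.5) and Cldn3 (46.1, 43.2 to 49.1). Cldn23 (29.4) and Ocln (28.8) overlapped, as did Cldn8 (5.02), Cldn1 (4.78) and Cldn12 (4.24). Thus Cldn3 was below Ocln in P, where its interval overlapped that of Cldn23, and above both in D.

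**Figure D1:**
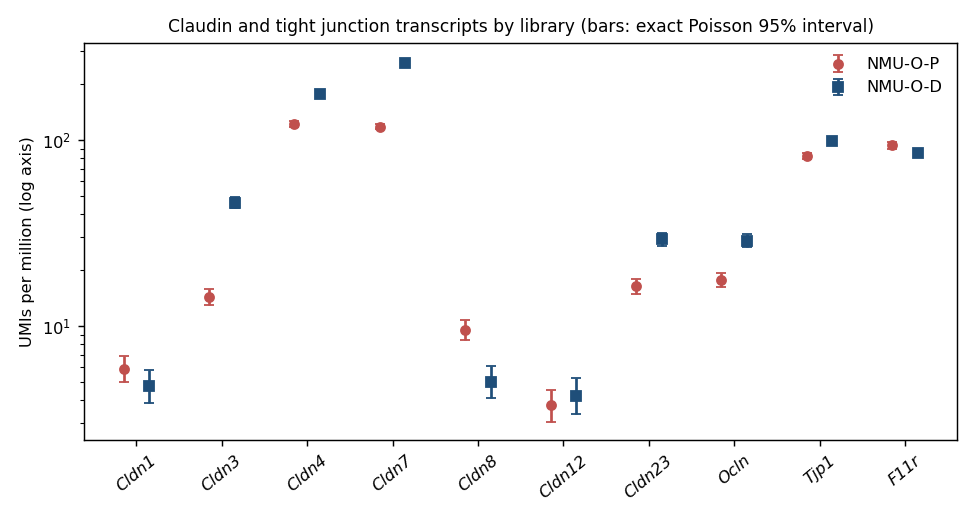
Level of each of the 10 genes in CPM (log axis) in the P library (NMU-O-P, circles) and the D library (NMU-O-D, squares), with bars for the exact Poisson 95% interval, which covers counting error only. Cldn3 and Cldn7 show the widest gaps with D above P, Cldn8 is lower in D, and the intervals of Cldn1 and Cldn12 overlap between libraries.

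Cldn3 and Cldn7 were higher in the differentiated library. The UMIs of Cldn3 numbered 384 in P and 936 in D, a 3.20-fold higher level in D (exact conditional binomial 95% interval 2.84 to 3.62). Cldn7 had 3156 and 5280 UMIs and was 2.20-fold higher (2.10 to 2.30). These were the only 2 of the 10 genes past 2-fold, and none was 2-fold higher in P; over all 10719 genes with at least 100 UMIs, 13.5% passed 2-fold towards D and 4.73% towards P. The log2 ratio of D over P was 0.84 (0.66 to 1.02) for Cldn23, 0.70 (0.52 to 0.88) for Ocln and 0.54 (0.47 to 0.61) for Cldn4. It was 0.27 (0.18 to 0.36) for Tjp1, 0.18 (-0.26 to 0.61) for Cldn12 and -0.13 (-0.22 to -0.04) for F11r. Cldn1, a claudin needed for the skin barrier, had 157 and 97 UMIs and a log2 ratio of -0.30 (-0.68 to 0.07), which counting error spans. Cldn8, a claudin of kidney tubules and other tight epithelia, had 254 and 102 UMIs and was lowest, at -0.92 (-1.27 to -0.59). The median log2 ratio of the 10 genes was 0.40 against 0.42 for the median gene. Relative to that median gene, 5 of the 10 were above 0, Cldn3 (1.26) was past 2-fold upwards, where 5.64% of all genes were, and Cldn8 (-1.34) past 2-fold downwards, where 8.65% were. Cldn7 was under 2-fold there (0.71), as it was without mitochondrial and ribosomal protein genes (0.80) and under a stricter cell filter (0.99), and the ratios of Tjp1 and Cldn12 became negative (-0.15 and -0.25).

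The share of cells with a UMI followed these levels. With every cell thinned to 2100 UMIs (6638 cells of P and 4417 of D; 180 and 479 shallower cells left out), Cldn3 was found in 2.20% of P cells (exact binomial 95% interval 1.86 to 2.58%) and 7.24% of D cells (6.50 to 8.05%). Cldn7 was found in 16.9% (16.0 to 17.8%) and 35.4% (34.0 to 36.8%), and Cldn4 in 18.7% (17.7 to 19.6%) and 27.2% (25.9 to 28.6%). Without thinning the shares were 4.31% and 12.5% for Cldn3, 27.1% and 48.8% for Cldn7, and 29.7% and 41.7% for Cldn4. F11r was found in 17.5% and 16.8% of thinned cells and Cldn1 in 1.10% and 1.04%. A thinned cell held on average 0.79 of the 10 transcripts in P and 1.18 in D. No transcript of the list was seen in 47.0% of P cells and 29.7% of D cells. Thinning levels total UMIs only. Ribosomal protein genes took 37.5% of the UMIs of kept cells in P and 21.4% in D, which leaves more for other genes in D. Its part in these shares was not tested. Both libraries are epithelial, so no cell class without claudins gave a background share.

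Other genes of the junction were read from a wider list of 24 non-claudin genes, 22 of which had at least 100 UMIs. Ildr1, a protein of the contacts where 3 cells meet, went from 5.62 to 55.0 CPM, a log2 ratio of 3.29 (3.04 to 3.54). The scaffold Mpdz (1.55), the polarity kinase Prkcz (1.18) and Cgnl1, paracingulin (1.10), were also past 2-fold, so that 4 of 22 were, beside 13.5% of all genes, and 0 were 2-fold higher in P, beside 4.73%. Ratios of 21 of the 22 were above 0 and the median was 0.83; Ybx3 (-0.50), a DNA- and RNA-binding partner of ZO-1, was the exception. Relative to the median gene 18 of 22 stayed above 0, with 2 past 2-fold upwards and 0 downwards, beside 5.64% and 8.65% of all genes. Of the transcription factors listed, Foxa1 (1.61), Pparg (1.42), Gata3 (1.29) and Grhl1 (1.08) were past 2-fold in D, 4 of 10 beside 13.5% of all genes. Relative to the median gene, Gata3 (0.87) and Grhl1 (0.66) were under 2-fold and Elf3 (-1.02) was past it downwards. The log2 ratio before that correction was 0.54 for Klf5, 0.48 for Grhl2, 0.42 for Ehf, 0.23 for Grhl3, -0.33 for Snai2 and -0.59 for Elf3.

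To place the 10 genes along urothelial differentiation, the thinned cells of each library were divided by their summed uroplakin UMIs. The genes were Upk1a, Upk1b, Upk2, Upk3a and Upk3b, which intermediate cells express and umbrella cells express at high levels. In P, 6463 cells held 0, 140 held 1 and 35 held 2 or over. In D, 2071 cells held 0, 768 held 1, 725 held 2 to 3, 501 held 4 to 7 and 352 held 8 or over. A uroplakin UMI was seen in 2.64% of P cells (2.26 to 3.05%) and 53.1% of D cells (51.6 to 54.6%; 4.44% and 58.2% without thinning). In the quartile with the most basal UMIs, which should be poor in uroplakins, the shares were 0.986% (0.565 to 1.60%, median 3199 UMIs per cell, against 3450 over all) and 14.7% (12.6 to 17.0%, 3011 against 3395). Whether the UMIs in basal cells are free RNA was not tested, and the ranges are a scale of uroplakin content, not cell types. The list also differs in make-up between the libraries. In P, Upk1a and Upk1b held 327 and 181 of 548 uroplakin UMIs, with Upk2 at 7 and Upk3a at 4. In D, Upk1a, Upk1b and Upk3a held 9680, 7664 and 6884 of 25284, with Upk2 at 760.

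Cldn3 and Cldn23 differed most along the uroplakin ranges among the genes with at least 100 UMIs. In D, Cldn3 was at 14.2, 32.9, 68.3, 93.1 and 112 CPM from the lowest to the highest range, with 110 UMIs in the lowest and 209 in the highest. It was higher at every step, and 7.91-fold higher (6.25 to 10.1) at 8 or over than at 0. In P it was at 13, 57.8 and 99.4, the last from 17 UMIs. Cldn23, a claudin described in gut and skin, was at 12.7, 18.7, 32.4, 52.0 and 89.5 in D, a 7.03-fold difference (5.45 to 9.10) between the ends, and at 15.6, 43.3 and 52.6 in P. Between the last 2 ranges of D it went from 52.0 to 89.5, where Cldn4 and Cldn7 were level. Ocln was at 18.8, 32.7, 36.1, 36.9 and 44.5 in D, 2.37-fold higher (1.79 to 3.12) at the top, and at 17.6, 20.9 and 40.9 in P.

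The abundant pair was less steep. Cldn4 was at 133, 186, 204, 231 and 231 in D and at 119, 221 and 234 in P. Cldn7 was at 181, 282, 320.1, 358 and 347 in D and at 115, 233 and 316 in P. Their levels in the highest D range were 1.73-fold (1.55 to 1.94) and 1.91-fold (1.74 to 2.10) those at 0. Most of the difference lay between 0 and the range of 2 to 3 uroplakin UMIs. Tjp1 was at 89.2, 99.4, 116, 107 and 97.6 in D, and its end ranges differed by a log2 ratio of 0.13 (-0.11 to 0.37). F11r went down from 94.3 through 87.4, 87.7 and 67.5 to 55.2, a log2 ratio of -0.77 (-1.08 to -0.47). In P, F11r was at 93.6, 96.3 and 117, and the interval of its log2 ratio (cells with any uroplakin UMI over those with 0) was -0.24 to 0.43.

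Of the 7 genes with at least 100 UMIs over the end ranges of D, 3 (Cldn3, Cldn23, Ocln) were at least 2-fold higher at the top and 0 lower, with 3.91% and 7.26% of all 7691 genes past 2-fold in these directions. Their median log2 ratio was 0.94 against 0.03 for the median gene. Between P cells with any uroplakin UMI and those with 0, 9 of the 10 had enough UMIs. Cldn3 (5.15-fold, 3.78 to 6.90), Cldn23 (2.90-fold, 2 to 4.09) and Cldn7 (2.17-fold, 1.87 to 2.51) were past 2-fold and 0 were lower, with 4.24% and 8.56% of 9458 genes past it. Cldn7 was under 2-fold there without mitochondrial and ribosomal protein genes (log2 ratio 0.93) and relative to the median gene (0.96). Both libraries gave the same leading pair, although P had only 175 cells with a uroplakin UMI and its uroplakin UMIs were mostly Upk1a and Upk1b. In D, median UMIs per cell went from 3028 at 0 to 4410.5 at 8 or over, the mitochondrial share from 6.17% to 7.76%, ribosomal UMIs from 22.6% to 18.6%, and the dissociation response genes Fos, Jun, Fosb, Junb, Egr1, Atf3, Hspa1a and Hspa1b from 2519 to 1180 CPM. Their part in these differences was not tested.

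**Figure D2:**
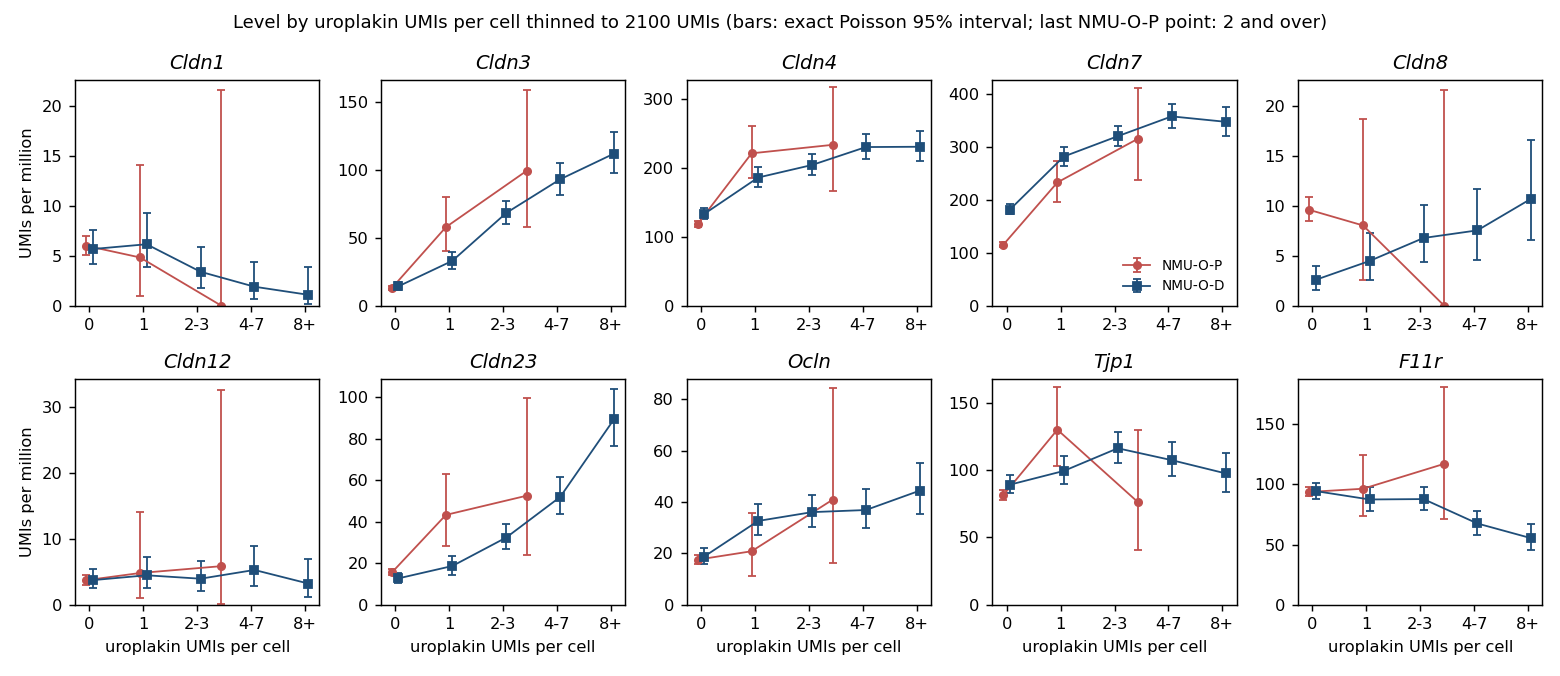
Level of each gene (CPM) against the uroplakin UMIs of a cell thinned to 2100 UMIs, in P (circles; the last point pools 2 and over) and D (squares), with exact Poisson 95% intervals. Cldn3 and Cldn23 climb through all 5 ranges of D, Cldn4 and Cldn7 level off, F11r descends in D from 94.3 to 55.2, and Cldn1 and Cldn8 take opposite courses in D at under 12 CPM.

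The 3 scarce claudins had few UMIs in the upper ranges. Cldn1 had 44, 22, 12, 5 and 2 UMIs along the D ranges, which is 5.66, 6.14, 3.38, 1.88 and 1.07 CPM; its log2 ratio at the ends was -2.40 (-5.49 to -0.46). In P it had 3 UMIs in the 175 uroplakin-positive cells. Cldn8 had 20, 16, 24, 20 and 20 UMIs in D, or 2.57, 4.47, 6.77, 7.54 and 10.7 CPM, so that the end ranges differed by 2.06 (1.09 to 3.03) on the log2 scale. In P, Cldn8 was at 9.59 and 8.02 CPM at 0 and 1 uroplakin UMI, and 0 UMIs were seen in the 35 cells above, which allows up to 17.5 CPM (3 counts). Cldn12 stayed between 3.22 and 5.28 CPM across the D ranges.

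Across the 8 ranges (3 of P and 5 of D), the log2 levels of the neighbours Cldn3 and Cldn4 had a Pearson correlation of 0.97, those of Cldn3 and Cldn23 of 0.94, and those of Cldn3 and Cldn1 of -0.77. The ranges share libraries and are ordered by the same list of uroplakin genes, whose make-up differs between the libraries, so these values are descriptions. Of 8826 genes with enough UMIs, those most like Cldn3 in profile were Cgnl1 (0.99), Ppfibp2 (0.99) and 8430408G22Rik (0.98). Most like Cldn4 were the ZO family member Tjp3 (0.99), Vsig10 (0.99) and Spint1 (0.98), an inhibitor of membrane serine proteases. Cldn1, which itself reached 10 UMIs in fewer than 6 ranges, was most like Skint3 (0.99), E2f3 (0.98) and Net1 (0.98), and Cldn8 was most like Tex15 (0.96), Nhp2 (0.96) and Gsdme (0.95). In the P range of 2 or over, with 35 cells, Cldn1, Cldn8, Tex15 and Gsdme were at 0, which allows up to 17.5 CPM (3 counts). How far the correlations of Cldn1 and Cldn8 rest on this range was not tested. Cgnl1, an actin-linked junction protein, went from 12 to 42.9 CPM along the D ranges and Tjp3 from 34.1 to 70.8. Between the end ranges of D, 16 of 22 genes of the wider junction list had ratios above 0. At the top, 5 were 2-fold higher and 1 lower, beside 3.91% and 7.26% of all genes. Mpdz went down from 13.6 to 1.07 CPM (2 UMIs at the top), Pard3 from 140 to 74.5 and Cxadr from 44.3 to 27.3.

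The libraries were then compared within uroplakin ranges, which do not match uroplakin content: cells with 0 uroplakin UMIs after thinning held 6.93 CPM of uroplakins in P and 112 CPM in D by their full counts, and cells with 1 held 303 and 567 CPM. Among cells with 0 uroplakin UMIs, Cldn3 reached 13 CPM (P) and 14.2 CPM (D), a log2 ratio of D over P of 0.13 (-0.20 to 0.44). In the same cells the ratio was 0.16 (0.06 to 0.27) for Cldn4, 0.10 (-0.18 to 0.37) for Ocln and -0.29 (-0.63 to 0.03) for Cldn23. Cldn7 kept a higher level in D, at 0.66 (0.56 to 0.75). Cldn8 stood apart: P had 245 UMIs (9.59 CPM) and D had 20 (2.57 CPM), giving -1.90 (-2.63 to -1.24). Thus 0 of the 10 were 2-fold higher in D and 1 was 2-fold higher in P, with 13.2% and 4.67% of 10127 genes past 2-fold, and the median of the 10 was 0.05 against 0.48 for the median gene. At 1 uroplakin UMI, Cldn3 was counted 36 times in P cells and 118 times in D cells, for a ratio of -0.81 (-1.36 to -0.23), lower in D. There Cldn23, with 27 and 67 UMIs, was at -1.21 (-1.88 to -0.51). At 2 or over, with 35 P cells at 1041 CPM of uroplakins and the pooled D ranges between 1085 and 6658 CPM, the intervals of Cldn3 (-0.89 to 0.59), Cldn4 (-0.54 to 0.40), Cldn7 (-0.29 to 0.52) and Cldn23 (-0.95 to 1.12) all spanned 0. None of the genes with at least 100 UMIs, 6 at 1 uroplakin UMI and 7 at 2 or over, was past 2-fold in either direction, where 16.9% and 25.5% of all genes were higher in D and 2.59% and 3.94% higher in P. The cells with 0 uroplakin UMIs were not alike otherwise. Their basal genes summed to 5846 CPM in P and 12112 in D, with Krt14 at 1803 and 6699. Ribosomal UMIs took 37.8% and 22.6%, and dissociation response genes were at 1145 and 2519 CPM. Over all kept cells, Krt5 and Krt14 held most basal UMIs in both libraries. Trp63 (149 CPM in P and 77.8 in D) and Itga6 (144 and 125) were lower in D. Itgb4 (73.4 and 84.3) and Cd44 (96.4 and 104) were higher in D.

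**Figure D3:**
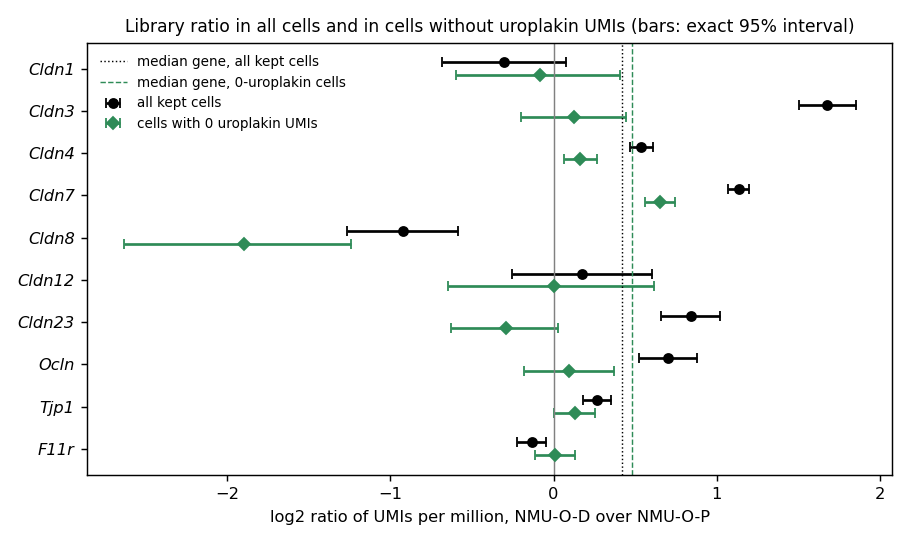
Log2 ratio of CPM, D over P, for each gene in all kept cells (circles) and in thinned cells with 0 uroplakin UMIs (diamonds), with exact 95% intervals; vertical lines mark the median gene of each comparison. Cldn3, Cldn23 and Ocln lie above 0 in all cells and have intervals that reach 0 in cells with 0 uroplakin UMIs, whereas Cldn7 stays above 0 and Cldn8 below it.

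The basal end of the epithelium was read from 6 genes (Krt5, Krt14, Trp63, Itga6, Itgb4, Cd44), with thinned cells put in quartiles of their summed UMIs. Krt5 and Krt14 held 94287 and 47565 of the 154199 basal UMIs of kept cells in P. In D they held 80280 and 75867 of 164086. Cldn3 was concentrated in the lower quartiles. From the lowest to the highest quartile it was at 31.1, 10.4, 7.97 and 1.01 CPM in P (268 UMIs in the lowest, 6 in the highest) and at 100.1, 55.2, 20.9 and 5.02 in D. The log2 ratio of the highest over the lowest quartile was -4.94 in P and -4.32 in D for Cldn3, -3.15 and -3.39 for Cldn23, -1.94 and -1.89 for Cldn7, -1.79 and -1.79 for Ocln, and -1.46 and -1.32 for Cldn4. At least 2-fold lower at the basal end were 6 of 9 genes in P and 5 of 7 in D, against 4.78% and 6.02% of all genes, and 0 were 2-fold higher there, as 5.7% and 5.42% of all genes were. The sizes changed with the keratins. Without Krt14 in the sum Cldn3 was at -1.91 in P and -2.92 in D, and without Krt5 and Krt14 at -3.10 and -1.25.

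Cldn1, Cldn8 and F11r differed in direction between the libraries along this basal scale. Cldn1 was at 9.85, 4.29, 4.18 and 3.55 CPM in P (85, 29, 21 and 21 UMIs), with its high values in the least basal cells. In D it was at 1.37, 2.93, 7.03 and 6.61 (7, 15, 38 and 25 UMIs), with its high values in the more basal cells. Cldn8 was at 6.84, 10.4, 9.76 and 12.2 in P and at 8.82, 4.49, 3.70 and 3.17 in D. F11r was at 110.2, 89.4, 83.5 and 83.9 in P and at 71.3, 81.9, 88.3 and 99.9 in D. Between the end quartiles, the log2 difference of Cldn1 was -1.47 in P (-2.24 to -0.77) and 2.27 in D (1.02 to 3.72), followed by 0.83 (0.31 to 1.35) and -1.48 (-2.53 to -0.53) for Cldn8 and by -0.39 (-0.55 to -0.24) and 0.49 (0.27 to 0.70) for F11r. None of these intervals spans 0, and they cover counting error only. Without Krt5 and Krt14 in the sum, Cldn1 was at -1.03 in P and 0.90 in D and Cldn8 at 0.38 and -0.83. The quartiles hold unlike cells in the 2 libraries: the least basal one was 6.02% uroplakin-positive in P and 86.5% in D, and the most basal one had basal genes at 9950 and 18554 CPM. In D, Cldn1 and Cldn8 had under 100 UMIs over both end quartiles.

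A further scale used the cornifying genes Sprr3, Cnfn, Crnn, Krt13, Krt4 and Ivl, which mark suprabasal cells of squamous epithelia and of which Krt4 and Krt13 also occur in urothelium. From 0 to 8 or over cornifying UMIs, Cldn1 was at 2.96, 6.07, 7.46, 9.73 and 11 CPM in P and at 6.86, 5.92, 2.81, 3.44 and 2.57 in D. The end ranges of P gave 1.89 (1.09 to 2.68) on the log2 scale, and those of D gave -1.42 (-2.97 to -0.13). The list is not the same in both libraries, with Krt13 its leading gene in P (15128 of 30862 UMIs) and Krt4 in D (27137 of 32036). In D, Crnn, Cnfn and Sprr3 held 11, 2 and 55 UMIs. Uroplakin-positive cells were 25.6% of the lowest and 75.8% of the highest range in D, and 1.17% and 4.16% in P. Basal genes were at 13465 and 4652 CPM in D, and at 6750 and 5069 in P. In D this scale thus overlaps the uroplakin and basal scales, and the part of each was not tested. Without Krt4 only 5 D cells reached 8 or over, so that the D direction of Cldn1 could not be read without it. Cldn23 (1.67 and 2.17), Cldn7 (1.49 and 1.35), Ocln (1.38 and 1.49) and Cldn3 (1.34 and 1.74) were past 2-fold in P and D. With Cldn4 at 1.03 in P, 5 of 8 genes were past 2-fold there and 4 of 7 in D, with 4.34% and 3.96% of all genes past it; 0 were 2-fold lower, as 10.2% and 5.93% of all genes were. Cldn1 had 59 UMIs over these P ranges and is not among the 8. In P, Cldn3 peaked at 28.3 in the range of 4 to 7 and was at 14.8 at 8 or over.

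**Figure D4:**
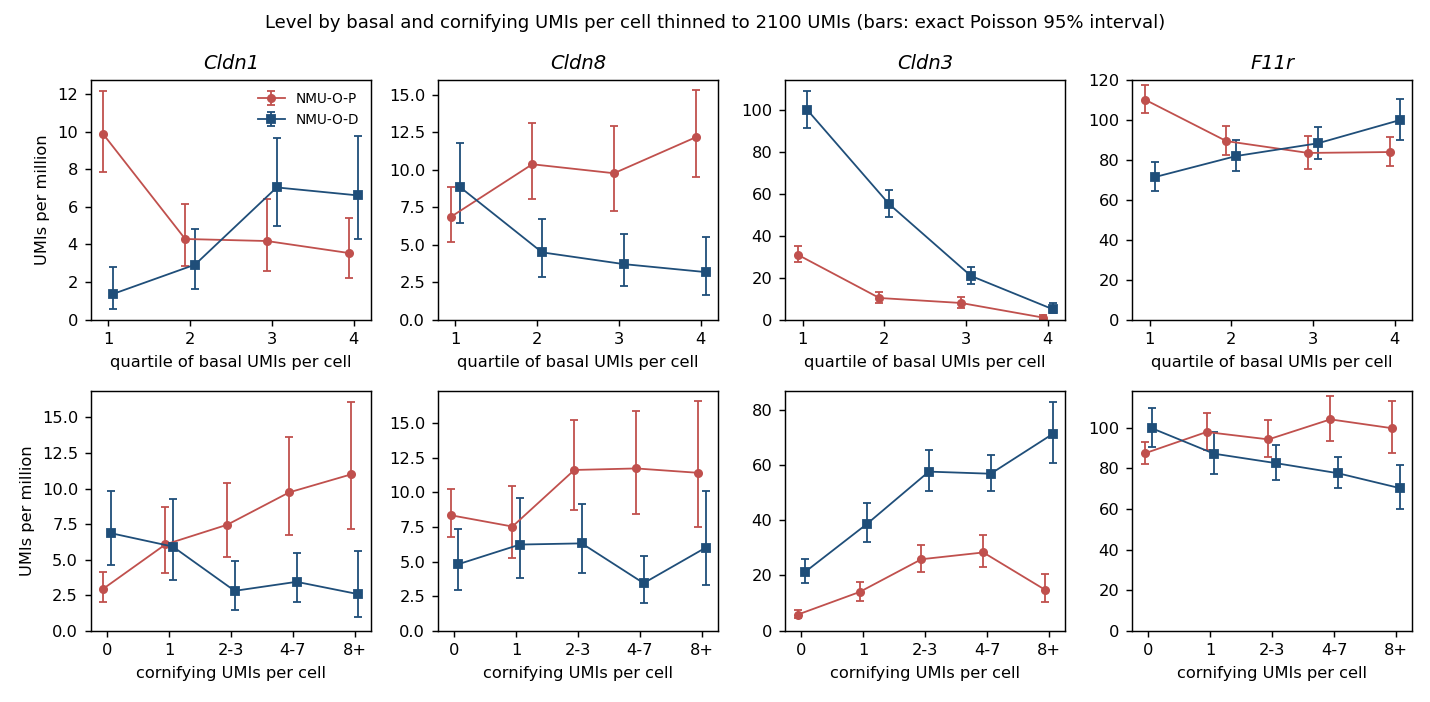
Levels (CPM, exact Poisson 95% intervals) of Cldn1, Cldn8, Cldn3 and F11r by quartile of basal UMIs (top row) and by cornifying UMIs (bottom row) of cells thinned to 2100 UMIs, in P (circles) and D (squares). The P and D lines of Cldn1, Cldn8 and F11r cross in the top row, while Cldn3 descends in both libraries.

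Several of the 10 genes were lower in cycling cells of P. In P, 342 thinned cells held at least 2 of 12 proliferation genes, and D had 11 such cells, too few to compare. In cycling cells of P, Cldn3 was at 2.55 CPM against 15.3 in the other cells (log2 ratio -2.59, -4.47 to -1.22) and Cldn4 at 47.2 against 127 (-1.43, -1.78 to -1.09). Cldn23 (-2.18), Cldn1 (-1.27) and Cldn7 (-1.20) were also past 2-fold, Cldn1 on 4 UMIs in cycling cells with an interval that spanned 0 (-3.16 to 0.12), so that 5 of 9 genes were lower in cycling cells, as were 5.31% of all genes, and 0 were 2-fold higher, where 7.77% of all genes were. Cldn8 was at 12.1 against 9.33 CPM, a log2 ratio of 0.38 (-0.38 to 1.05), and Cldn12 at 6.38 against 3.59 (0.83, -0.28 to 1.77). Basal genes were at 7116 CPM in cycling cells and 5675 in the others, and their part in these differences was not tested.

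Within single cells, transcripts of the list occurred together in part. In P, the 146 thinned cells with a Cldn3 UMI had Cldn23 at 62.1 CPM against 15.3 in the others (log2 ratio 2.02, 1.52 to 2.48), Cldn7 at 302 against 115 (1.40, 1.19 to 1.60) and uroplakins at 93.2 against 18.8. In D, the 320 Cldn3-positive cells had Cldn23 at 66.1 against 26.9 (1.30, 0.98 to 1.60) and uroplakins at 2329 against 1192. The neighbours Cldn3 and Cldn4 went together in both, with Cldn3 at 28.0 against 11.3 in Cldn4-positive and Cldn4-negative cells of P and at 61.5 against 42.4 in D. Between Cldn3-positive and Cldn3-negative cells, the log2 ratio of Cldn4 was 1.08 in P and 0.38 in D. It was smaller than that of Cldn23 and that of Cldn7 (1.40 in P and 0.65 in D). Whether the closeness of Cldn3 and Cldn4 in the genome has a part in their levels was not tested. Cldn8 and Cldn3 were seldom seen together in P. The 129 Cldn8-positive cells held 0 of 384 Cldn3 UMIs and 2 of 435 Cldn23 UMIs, a pair of low counts that leaves wide intervals. Conversely, the 146 Cldn3-positive cells held 3 Cldn8 UMIs, or 4.44 CPM against 9.63 in the others (-1.12, -3.41 to 0.45). In D, the 53 Cldn8-positive cells had Cldn3 at 48.7 against 47.7 and uroplakins at 2770 against 1269. In P, the 73 Cldn1-positive cells had more of several members, with Cldn4 at 293 against 119.7 (1.29, 0.99 to 1.58), Cldn7 at 234 against 118 (0.99, 0.65 to 1.31), Ocln at 52.8 against 17.4 (1.60, 0.84 to 2.28) and Cldn23 at 41.0 against 16.2 (1.34, 0.46 to 2.10). In D, the 46 Cldn1-positive cells had Cldn4 at 245 against 178 (0.46, 0.03 to 0.86). For Cldn7 (-0.39 to 0.41), Ocln (-0.80 to 1.41) and Cldn23 (-1.13 to 1.24) the intervals in D spanned 0. Cornifying genes in Cldn1-positive cells were at 2412 against 1151 CPM in P and at 1069 against 1621 in D, where uroplakins were at 540 against 1296. These contrasts were made between cells of 1 library, which are not replicates.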

How the data were processed

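Per the study's methods and the submitters' processing notes, the authors used bcl2fastq 2.19.0 and Cell Ranger 3.0.2 with GRCm38/mm10. The deposited matrices hold raw UMI counts per gene and barcode, with no normalization. Here, cells with over 800 genes and at most 12% mitochondrial UMIs were kept, UMIs were summed over cells and expressed per 1000000 (CPM), and cells were thinned to 2100 UMIs (fixed seed) to assign them to ranges and to compare shares of cells; levels of a range use its full UMIs. Genes with at least 100 UMIs over the groups compared were read against a 2-fold difference, which is a size rule and no test. Intervals (95%; Poisson, Clopper-Pearson, conditional binomial) cover counting error only. Scripts (Python 3.11.15, numpy 2.4.6, scipy 1.17.1) were tested on simulated data.

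All 10 genes are described; of the wider junction list, genes past 2-fold, and of the transcription factors, those with at least 100 UMIs. Ybx3, the only one of the 22 below 0, was named after its value was seen. The 3 genes most alike in profile are by Pearson correlation of log2(CPM + 1). The members and lists were chosen with earlier results of these data known. The proximity of Cldn3 and Cldn4 was likewise examined after their values. Doublets were not called; leaving out the 6% of cells with the most UMIs was an alternative. The count matrices were mapped to GENCODE coordinates of GRCm38. Cldn3 overlaps Wbscr25 on the opposite strand, and Tjp1 overlaps 3 predicted genes, 2 on its own strand, so reads shared with these could change their counts. Alternatives concerned the filter, the scaling, the fold, the thinning, the mean over cells and shared barcodes.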

Additional observations from a re-analysis of the deposited data

Results flagged for a closer look

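Cldn1, Cldn8 and F11r had opposite directions in the 2 libraries along the basal scale. The log2 ratio of the most over the least basal quartile was -1.47 in P and 2.27 in D for Cldn1, 0.83 in P and -1.48 in D for Cldn8, and -0.39 in P and 0.49 in D for F11r. Between the highest and the lowest cornifying range, Cldn1 was at 1.89 in P and -1.42 in D. The highest range held 26 Cldn1 UMIs in P and 6 in D, where Krt4 held 27137 of the 32036 cornifying UMIs. Cldn1 along the uroplakin ranges and Cldn8 along the cornifying ranges went the same way in both libraries. Cldn8 along the uroplakin ranges and F11r along both went opposite ways. These are directions of the end values, on few UMIs for Cldn1 and Cldn8. Without Krt5 and Krt14 among the basal genes, Cldn1 in D was at 0.90 and Cldn8 in D at -0.83, both under 2-fold. With 1 library per condition, the difference between the libraries was not tested.

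Cldn3, Cldn4, Cldn7 and Cldn23 were also seen in the 2079 barcodes of D that the cell filter left out, at higher levels than in the 1376 left out of P. Per 1000000 non-mitochondrial UMIs, Cldn3 was at 26.5 in the left-out barcodes of D and 11 in those of P, Cldn4 at 197 and 120, Cldn7 at 196 and 64.3, and Cldn23 at 34.3 and 11. In the kept cells of D, on the same scale, Cldn3 was at 49.6, Cldn4 at 190.4, Cldn7 at 280.0 and Cldn23 at 31.7.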

How the results depend on the processing

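The count of genes at least 2-fold higher in D, 2 in the report, was 1 when mitochondrial and ribosomal protein genes were left out, 1 after scaling to the median gene, and 1 with a stricter filter (over 1000 genes, at most 10% mitochondrial UMIs), since Cldn7 then stood under 2-fold; it was 4 at 1.5-fold. The count higher in P, 0 in the report, was 1 (Cldn8) under both scalings and 1 at 1.5-fold. In the highest uroplakin range of D, 5 genes were higher and 1 lower at 1.5-fold. In that range 4 were higher without thinning and 4 as a mean over cells. In uroplakin-positive cells of P, the count of higher genes, 3 in the report, was 2 under both scalings and 4 as a mean over cells or at 1.5-fold, and the count of lower genes was 1 without the 6% of cells with the most UMIs and 2 at 1.5-fold. No value past 2-fold changed direction under any alternative run. Of values under 2-fold, Tjp1 and Cldn12 (D over P) turned negative under both scalings, F11r across the P ranges likewise, Tjp1 across the D ranges did so when cells were thinned to 1500 UMIs (-0.02) or set against all cells below the top range (-0.03), and Cldn1 (D over P) was 0.17 as a mean over cells and 0.003 without the 6% of cells with the most UMIs. Of alternatives chosen after seeing the data, leaving Krt5 and Krt14 out of the basal genes kept the signs of Cldn1 (-1.03 in P and 0.90 in D), Cldn8 (0.38 and -0.83) and F11r (-0.28 and 0.26). The cause of these changes was not tested. Leaving Krt4 out of the cornifying genes was not run in D, where 5 cells remained at 8 or over. For the P ranges the comparison with all cells below the top range was not run, as it equals the reported one. No paired analysis was possible because each condition has 1 library, which also leaves no replicate to omit. Cldn1, Cldn8 and Cldn12 had at most 254 UMIs per library, which limits any split of their cells.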
